A study of Homo sapiens with 24 samples.

Results

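The genes described here carry out or control cholesterol and fatty acid synthesis. The group holds 34 genes, chosen by symbol, and all 34 were found among the 35993 gene symbols of the deposited table. They fall into 4 roles: 18 enzymes of sterol synthesis, 4 genes of the sterol-sensing machinery (INSIG1, SREBF1, SREBF2 and SCAP), 8 enzymes of fatty acid and glycerolipid synthesis, and 4 genes of lipid transport and export. Expression was measured by RNA sequencing in 24 libraries of J82 and RT-112, 2 established human bladder cancer cell lines. Both lines have 4 groups, each with 3 biological replicates: the parental cells, which the labels call the control for CD44 and for CD44v6, and 3 lines newly established from that background, called CD44 Low (low CD44 receptor), CD44 High (high CD44 receptor) and CD44v6 (high level of the CD44 variant 6 receptor). CD44 is a cell-surface receptor for hyaluronan whose transcript is alternatively spliced. How the derived lines were obtained, whether each is 1 clone and which carrier cells or treatments they shared is not given in the sources used here. Each derived line stands for itself alone, and the replicates are not stated to come from separate cultures, so the p-values below measure the spread between these libraries.

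Cells build cholesterol from acetyl-CoA through the mevalonate pathway, squalene and a series of sterol intermediates, and build fatty acids from acetyl-CoA through malonyl-CoA. The supply is controlled by SREBP transcription factors, which SCAP escorts out of the endoplasmic reticulum when sterols are scarce and which INSIG proteins retain when sterols are plentiful. SREBP-2, encoded by SREBF2, mainly drives sterol synthesis genes, SREBP-1, encoded by SREBF1, mainly drives fatty acid synthesis genes, and INSIG1 is itself an SREBP target. The export pumps ABCA1 and ABCG1 are targets of the liver X receptors, which respond to oxysterols. In the bladder, the urothelium forms a barrier with a lipid-rich apical membrane.

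The promoters of 5 members are shown. HMGCS1, SCD, MSMO1 and FADS1 were taken because their transcripts carry results below. HMGCS1 and SCD were called lower in CD44 High in both lines, and MSMO1 was called in opposite directions in the 2 lines. FADS1 had the largest change in RT-112. SREBF2 was taken because it encodes the sterol regulator, and its own transcript was called in no comparison of the main test. RefSeq windows of assembly GRCh38.p14, running from 250 bases before a start site to 50 after it, were matched for 29 of the 34 members; ABCG1, ACAT2, FDFT1, FASN and SQLE were not matched. Each line gives the 250 bases before the start, 5′ to 3′ on the gene's strand. Capitals mark the SRE-like motif TCACNCCAC, a form of the sterol regulatory element bound by SREBPs, and the CCAAT box, bound by NF-Y, on either strand (GTGGNGTGA and ATTGG on the reverse).
SREBF2: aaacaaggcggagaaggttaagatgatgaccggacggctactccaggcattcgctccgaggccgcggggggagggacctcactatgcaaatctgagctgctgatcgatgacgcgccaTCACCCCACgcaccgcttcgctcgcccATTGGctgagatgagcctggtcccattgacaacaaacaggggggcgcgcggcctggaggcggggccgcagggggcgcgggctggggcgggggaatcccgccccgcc
HMGCS1: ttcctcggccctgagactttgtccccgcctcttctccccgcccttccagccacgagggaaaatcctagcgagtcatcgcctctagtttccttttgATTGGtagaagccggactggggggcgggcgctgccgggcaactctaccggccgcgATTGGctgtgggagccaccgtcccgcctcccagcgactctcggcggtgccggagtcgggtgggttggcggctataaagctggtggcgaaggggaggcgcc
SCD: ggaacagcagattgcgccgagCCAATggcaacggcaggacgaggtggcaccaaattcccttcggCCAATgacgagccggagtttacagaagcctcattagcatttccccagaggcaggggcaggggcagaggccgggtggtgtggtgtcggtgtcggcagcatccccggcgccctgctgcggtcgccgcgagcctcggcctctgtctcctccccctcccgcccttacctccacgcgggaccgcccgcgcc
MSMO1: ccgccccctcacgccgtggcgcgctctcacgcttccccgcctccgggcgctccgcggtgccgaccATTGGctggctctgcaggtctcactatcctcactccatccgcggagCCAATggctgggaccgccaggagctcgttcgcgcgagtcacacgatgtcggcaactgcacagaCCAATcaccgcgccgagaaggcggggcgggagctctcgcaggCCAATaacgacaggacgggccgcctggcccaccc
FADS1: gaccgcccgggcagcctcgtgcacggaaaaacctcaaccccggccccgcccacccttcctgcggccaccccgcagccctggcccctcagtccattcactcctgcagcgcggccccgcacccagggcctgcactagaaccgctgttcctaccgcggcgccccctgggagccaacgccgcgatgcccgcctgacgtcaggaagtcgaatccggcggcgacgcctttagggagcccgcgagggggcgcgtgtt
These stretches lie at chr22:41832855-41833104 (plus strand), chr5:43313413-43313662 (minus strand, the first of 2 listed starts), chr10:100346983-100347232 (plus), chr4:165327419-165327668 (plus) and chr11:61817004-61817253 (minus). In SREBF2 the SRE-like motif begins 133 bases before the start, and a CCAAT box on the other strand begins 106 bases before it; the 2 matches do not overlap. HMGCS1 has 2 CCAAT boxes, SCD has 2 and MSMO1 has 4. FADS1 holds neither motif in this stretch. Over the whole 300-base windows, a CCAAT box was present in 24 of the 40 member windows (60%), against 34.6% of all 35116 windows, and the SRE-like motif in 1 of 40 (2.5%), against 1.13%. That 1 window was the one of SREBF2, and the windows of SREBF1 and INSIG1 did not hold the motif. The GC box GGGCGG, bound by Sp1 and searched on both strands, was present in 35 of 40 (87.5%), against 45% of all windows and 56.3% of windows of protein-coding genes. A match is a description of the letters and not a measured binding site.

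Library totals ran from 16752825 to 24419670 counts. Small nuclear RNAs summed to 118 to 185 CPM (counts as a rate per library total, after TMM scaling of the totals) in replicate 3 of the derived J82 lines and to 669 to 995 CPM in their replicates 1 and 2, so J82 calls that were lost with replicates 1 and 2 only are named as such. That fit also holds fewer libraries per group, so a call lost in it cannot be assigned to replicate 3. In parental J82 the sums were 437, 429 and 261 CPM, and their part in the comparisons with parental J82 was not tested. In RT-112 the same sum was 626 to 713 CPM in parental libraries and 96.5 to 387 CPM in those of the derived lines, which separates parental cells from every derived group. CD44 was lowest in CD44 Low in each line, at 254 to 309 CPM in J82 and 120 to 152 CPM in RT-112, against 612 to 1072 CPM and 351 to 516 CPM in CD44 High and CD44v6 together. Of the urothelial markers, UPK3A was at 0 in all 24 libraries; in J82, UPK2 was at 0 in all 12 and GATA3 did not exceed 0.859 CPM, while in RT-112 GATA3 was at 30.4 to 46.9 CPM. The epithelial factor GRHL2 was at 0 in all J82 libraries and at 234 to 284 CPM in RT-112, and the mesenchymal filament VIM was at 211 to 622 CPM in J82 and at most 2.55 CPM in RT-112. J82 thus had no counts of UPK2 and UPK3A and little GATA3, but UPK3A was at 0 in RT-112 as well. The urothelial markers PPARG, FOXA1 and UPK1A are not given here for J82. KRT8 and KRT18 were high in both lines. The leukocyte marker PTPRC did not exceed 0.162 CPM and the hepatocyte marker ALB was at 0 throughout. Some markers moved with the groups: in J82, VIM was at 211 to 246 CPM in CD44 Low and at 586 to 622 CPM in CD44 High, and in RT-112 the uroplakin UPK1A was at 4.32 to 5.79 CPM in CD44 Low and at 0.747 to 1.35 CPM in CD44 High. Their part in the results below was not tested.

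The parental lines were compared first, as the setting in which the derived lines differ. J82 carried more transcript of most sterol enzymes and far more of the fatty acid desaturases FADS1 and FADS2 and of ABCA1, while RT-112 carried more SREBF1, SCD and LSS and was the line with STARD4 and ABCG1. By edgeR's quasi-likelihood test with Benjamini-Hochberg adjustment, 27 of the 34 genes (79.4%) differed between parental J82 and parental RT-112 at an adjusted p under 0.05, 19 higher in J82 and 8 lower; among all 17438 genes tested the share was 62.0% (31.0% higher and 31.0% lower). The 8 lower ones include STARD4 and ABCG1, which had 0 and 2 counts over all J82 libraries. These 2 passed the filter on low counts only through RT-112, so their calls were all but fixed in advance. The median log2 difference was 0.51 over the members and 0.00 over all genes. Each line is a single cell line, so this is a difference between 2 lines and not between tumour classes.

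**Figure D1:**
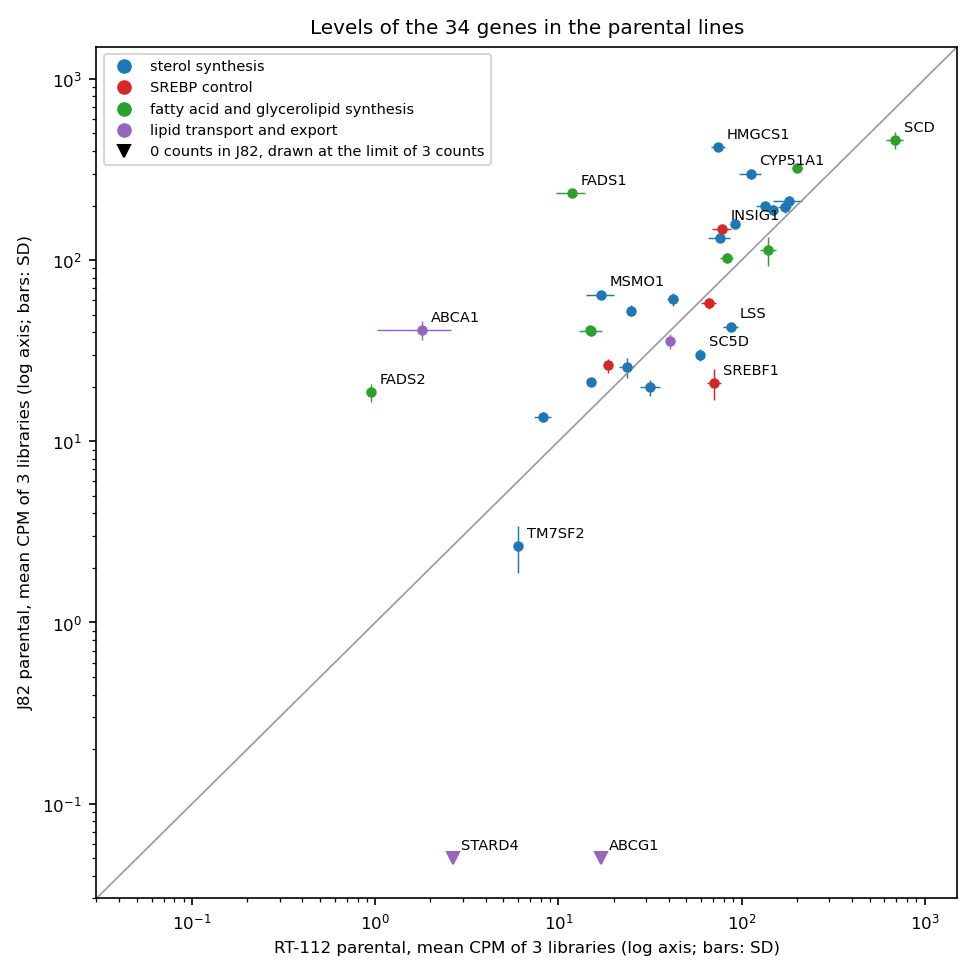
Mean level of each of the 34 genes in parental RT-112 (x) and parental J82 (y), in CPM on log axes, with bars for the SD over 3 libraries and colours for the 4 roles. Points above the diagonal are higher in J82: FADS1, FADS2 and ABCA1 lie farthest above it, and STARD4 and ABCG1, with 0 counts in parental J82, are drawn at the limit of 3 counts (0.0501 CPM).

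FADS1, the delta-5 desaturase of polyunsaturated fatty acid synthesis, was at 237, 237 and 227 CPM in parental J82 and at 10.5, 14.2 and 10.7 CPM in parental RT-112. No library of one line came near the other, and the difference was 19.7-fold (log2 4.30, SE 0.19, adjusted p = 2.74e-14). FADS2, the delta-6 desaturase that acts before it, was at 19.8, 16.2 and 20 CPM in J82 against 0.907, 0.964 and 0.975 CPM, a 19.5-fold difference (log2 4.29, SE 0.27, adjusted p = 5.17e-12). ABCA1, which exports cholesterol to lipid-poor apolipoprotein, was at 41.5, 36.2 and 45.7 CPM in J82 and at 1.47, 1.24 and 2.69 CPM in RT-112, a 22.6-fold difference (log2 4.50, SE 0.38, adjusted p = 9.72e-10). These 3 genes stand apart from the rest of the group, since the next largest difference toward J82 was the 5.64-fold one of HMGCS1.

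Among the sterol enzymes, HMGCS1 (the cytosolic HMG-CoA synthase that commits acetyl-CoA to the mevalonate pathway) averaged 420 ± 18.3 CPM in parental J82 and 74.6 ± 6.32 CPM in parental RT-112 (SD, n = 3). CYP51A1, NSDHL, MSMO1 and EBP, which act on the sterol rings after lanosterol is formed, were also higher in J82, with log2 differences of 1.41, 1.09, 1.91 and 0.79. In the other direction, LSS (lanosterol synthase) differed by -1.03, SC5D by -0.98, TM7SF2 by -1.20 and MVK (mevalonate kinase) by -0.68. ACAT2, MVD and FDPS did not pass the test, at log2 0.23, 0.11 and 0.18. The sterol enzymes thus did not differ between the lines as 1 block: 11 were called higher in J82, 4 lower and 3 not called.

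The regulators also differed in direction. SREBF1 was at 23.9, 16.3 and 22.7 CPM in parental J82 and at 64.8, 70.9 and 77.3 CPM in parental RT-112 (log2 -1.76, SE 0.18, adjusted p = 2.81e-08), whereas SREBF2 was at 57.8 ± 3.84 and 66.0 ± 6.13 CPM (SD, n = 3; log2 -0.19, adjusted p = 0.232). INSIG1 was higher in J82 (log2 0.93, adjusted p = 1.89e-05) and so was SCAP (log2 0.50, adjusted p = 9.22e-04). Of the fatty acid enzymes, SCD (stearoyl-CoA desaturase, which makes monounsaturated fatty acids) was lower in J82 (log2 -0.59, adjusted p = 8.55e-04), and ELOVL6, LPIN1 and ACLY were higher (log2 1.42, 1.47 and 0.67). FASN and ACACA, the 2 enzymes that build palmitate, were not called, at log2 -0.31 (adjusted p = 0.293) and 0.32 (adjusted p = 0.0776).

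STARD4, a cytosolic carrier of cholesterol between membranes, had 0 counts in 12 of 12 J82 libraries. It was at 2.32, 2.43 and 3.20 CPM in parental RT-112, which is at least 52.9-fold higher than a limit of 3 counts over the J82 parental group. ABCG1, which exports cholesterol to high-density lipoprotein, had 0 counts in 11 of 12 J82 libraries and 2 counts in all. In parental RT-112 it was at 14.8, 18.1 and 18.3 CPM, at least 341-fold higher on the same limit, which covers counting error only. Both genes were left out of the tests within J82 by the filter on low counts, which leaves 32 members tested there and 34 in RT-112.

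Per kilobase of its longest coding transcript in GENCODE 29, HMGCS1 was at 120 ± 5.22 CPM per kb in parental J82 and CYP51A1 at 93.3 ± 6.25 (SD, n = 3). SCD was at 85.7 ± 9.38 CPM per kb in parental J82 and at 129 ± 14 in parental RT-112, and FADS1 at 51.6 ± 1.28 and 2.61 ± 0.46. FDPS (farnesyl diphosphate synthase) was at 132 ± 8.50 and 116 ± 9.76, but its longest coding transcript of 1.478 kb is far shorter than its merged exons of 3.718 kb. The order of genes on this scale rests on the length used, so none is given. The count table also lists 8 pseudogenes named for FDPS, and the sources used here do not say how reads shared with them were counted, so the level of FDPS is uncertain. The level of CYP51A1 is uncertain too, since 79.4% of its exonic bases also lie in another protein-coding gene on the same strand.

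In J82, SREBF1, SCD, INSIG1, HMGCS1 and ABCA1 had less transcript in cells of the CD44 High line than in CD44 Low cells, while the sterol enzymes FDFT1 and MSMO1 had more. SREBF2 and SCAP were not called, and 12 of the 18 sterol enzymes had a log2 fold change above 0 (median 0.10). The differences were modest, between 1.23-fold and 1.52-fold. Of 32 members tested, 7 (21.9%) were called, 2 higher and 5 lower; over all 15951 genes tested, 15.7% were called (8.83% higher and 6.90% lower). The median log2 fold change was -0.02 over the members and -0.02 over all genes. By role, 3 of 18 sterol enzymes were called (2 higher, 1 lower), 2 of 4 regulators (both lower), 1 of 8 fatty acid genes (lower) and 1 of the 2 transport genes tested (lower). Leaving out 1 library left between 2 and 5 members called, with 2 called without CD44 Low replicate 1 or CD44 High replicate 2.

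**Figure D2:**
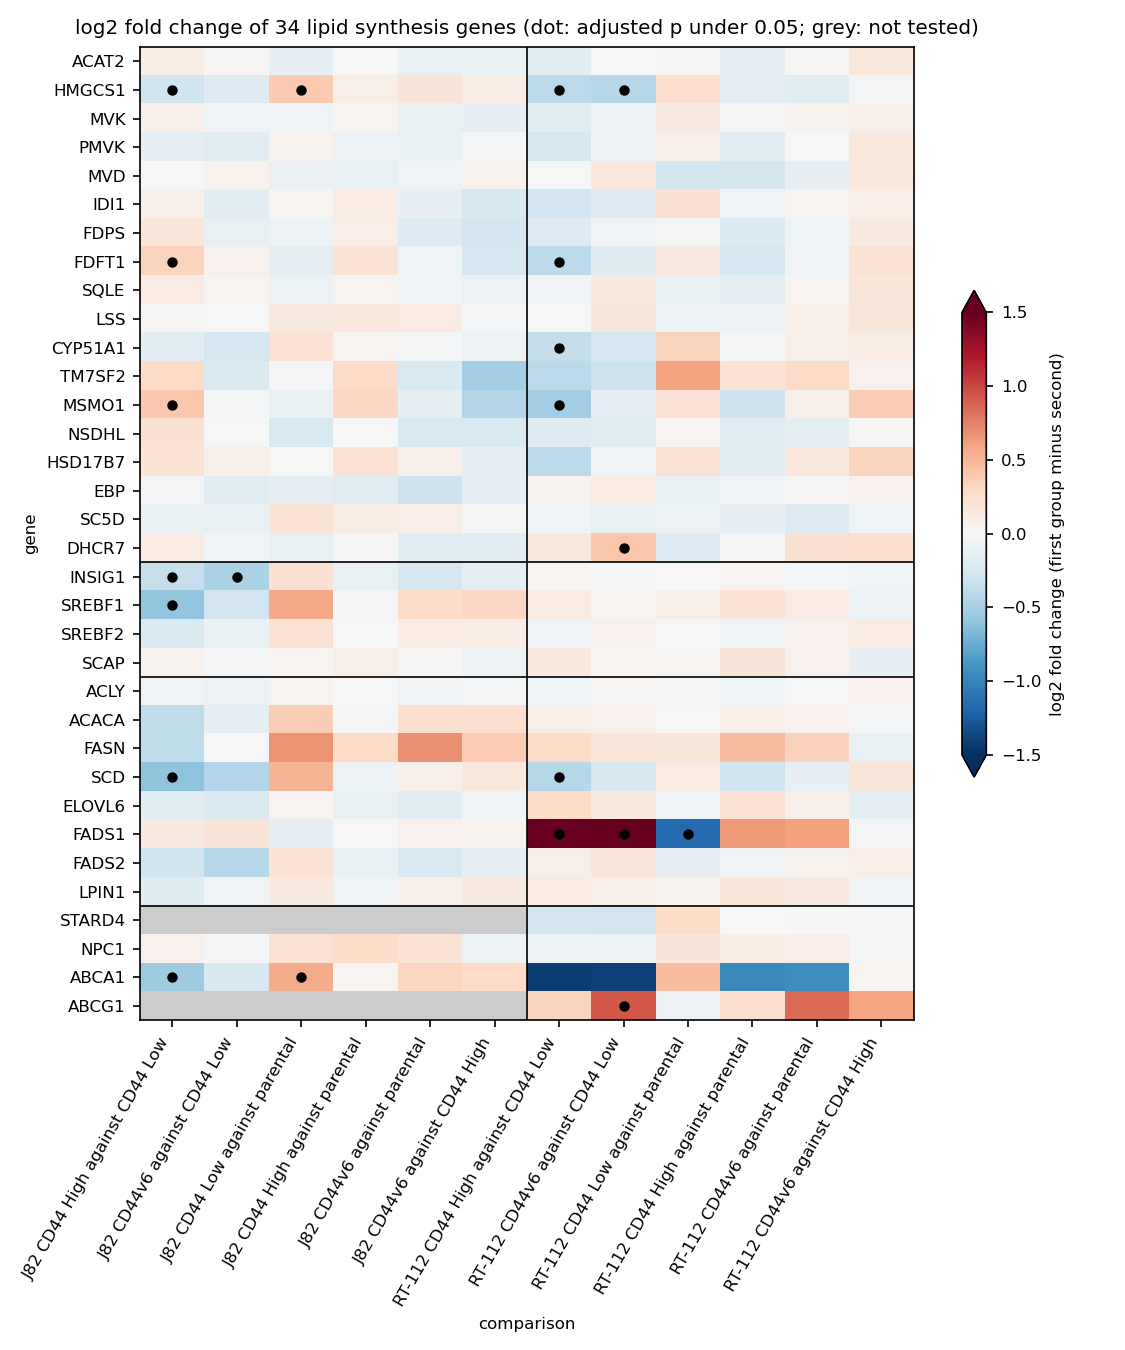
Log2 fold changes of the 34 genes (rows, in role order with lines between roles) in the 6 comparisons of each line (columns), coloured from -1.5 (blue) to 1.5 (red), with a dot where the adjusted p was under 0.05 and grey where a gene was not tested. Dots gather in the comparisons with CD44 Low, and the FADS1 row in RT-112 holds the strongest colours with a dot.

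HMGCS1 was at 551, 566 and 543 CPM in J82 CD44 Low and at 450, 466 and 425 CPM in CD44 High. The groups did not overlap, and the log2 fold change was -0.30 (SE 0.07, adjusted p = 0.013). Without CD44 High replicate 3 the adjusted p was 0.0545, the highest over the 6 fits that each left out 1 library, and with replicates 1 and 2 only it was 0.091. FDFT1 (squalene synthase, the first step that leads only to sterols) was at 182, 187 and 177 CPM in CD44 Low and at 256, 232 and 196 CPM in CD44 High (log2 0.33, SE 0.10, adjusted p = 0.0344). The 3 CD44 High libraries lay above all CD44 Low libraries, with replicate 3 the nearest to them. This call was lost on leaving out any library but CD44 High replicate 3 (adjusted p up to 0.146), and in a fit on the 6 libraries alone (adjusted p = 0.0778).

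MSMO1, the methylsterol monooxygenase that removes methyl groups from the sterol ring, was at 58.8, 56.4 and 65.4 CPM in J82 CD44 Low and at 92.9, 75.9 and 69.9 CPM in CD44 High (log2 0.41, SE 0.13, adjusted p = 0.0438). The groups did not overlap, but the nearest libraries were only a few CPM apart. Leaving out either of replicates 1 and 2 of CD44 Low or of CD44 High ended the call (adjusted p up to 0.179), as did no filter on low counts and a fit on the 6 libraries alone (adjusted p up to 0.0654). The other 15 sterol enzymes did not pass the test; their log2 fold changes ran from -0.17 (CYP51A1) to 0.30 (TM7SF2).

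SREBF1 was at 32.2, 26.2 and 35.0 CPM in J82 CD44 Low and at 19.5, 19.1 and 23.2 CPM in CD44 High, with no overlap (log2 -0.59, SE 0.16, adjusted p = 0.0217). Its call was lost without CD44 Low replicate 1 or 3 or CD44 High replicate 1 or 2 (adjusted p up to 0.0859), and with replicates 1 and 2 only (adjusted p = 0.102). INSIG1 was at 163, 179 and 182 CPM in CD44 Low and at 137, 139 and 135 CPM in CD44 High. All CD44 High libraries were lower (log2 -0.34, SE 0.08, adjusted p = 0.0149); without CD44 Low replicate 3 the adjusted p was 0.0501, and with replicates 1 and 2 only it was 0.139. SREBF2 was at 70.2, 66.1 and 66.2 CPM against 59.1, 53.3 and 61.1 CPM, a difference that did not pass the test (log2 -0.22, SE 0.14, adjusted p = 0.317). SCAP was at 28.0, 23.6 and 29 CPM against 29.5, 27.8 and 26.3 CPM, with overlapping groups (log2 0.06, adjusted p = 0.768).

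SCD was at 785, 624 and 561 CPM in J82 CD44 Low and at 472, 403 and 419 CPM in CD44 High. Every CD44 High library was below every CD44 Low library (log2 -0.60, SE 0.14, adjusted p = 0.013), although CD44 Low replicate 1 stood well above its fellows. The call was lost without that library or without CD44 High replicate 2 (adjusted p up to 0.0665). With replicates 1 and 2 only, SCD was 1 of the 3 members still called, with FDFT1 and MSMO1. ABCA1 was at 73.7, 53.5 and 55.4 CPM in CD44 Low and at 43.5, 39.0 and 42.7 CPM in CD44 High (log2 -0.54, SE 0.15, adjusted p = 0.0281); its call was lost without CD44 Low replicate 1 or any library of CD44 High (adjusted p up to 0.129), and with replicates 1 and 2 only (adjusted p = 0.0569). FASN and ACACA were at log2 -0.38 each, with adjusted p of 0.304 and 0.18.

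In RT-112, 5 members had less transcript in CD44 High than in CD44 Low, 4 of them sterol enzymes, and 1, FADS1, was higher by 3.51-fold. HMGCS1 and SCD were lower here as in J82, whereas FDFT1 and MSMO1 were lower in RT-112 and higher in J82. The regulators SREBF1, SREBF2, INSIG1 and SCAP were not called in RT-112. The count was 6 of 34 (17.6%) against 16.0% of all 15645 genes tested (9.01% higher and 7.02% lower), so the group was called about as often as other genes. The median log2 fold change was -0.05 over the members and 0.02 over all genes.

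**Figure D3:**
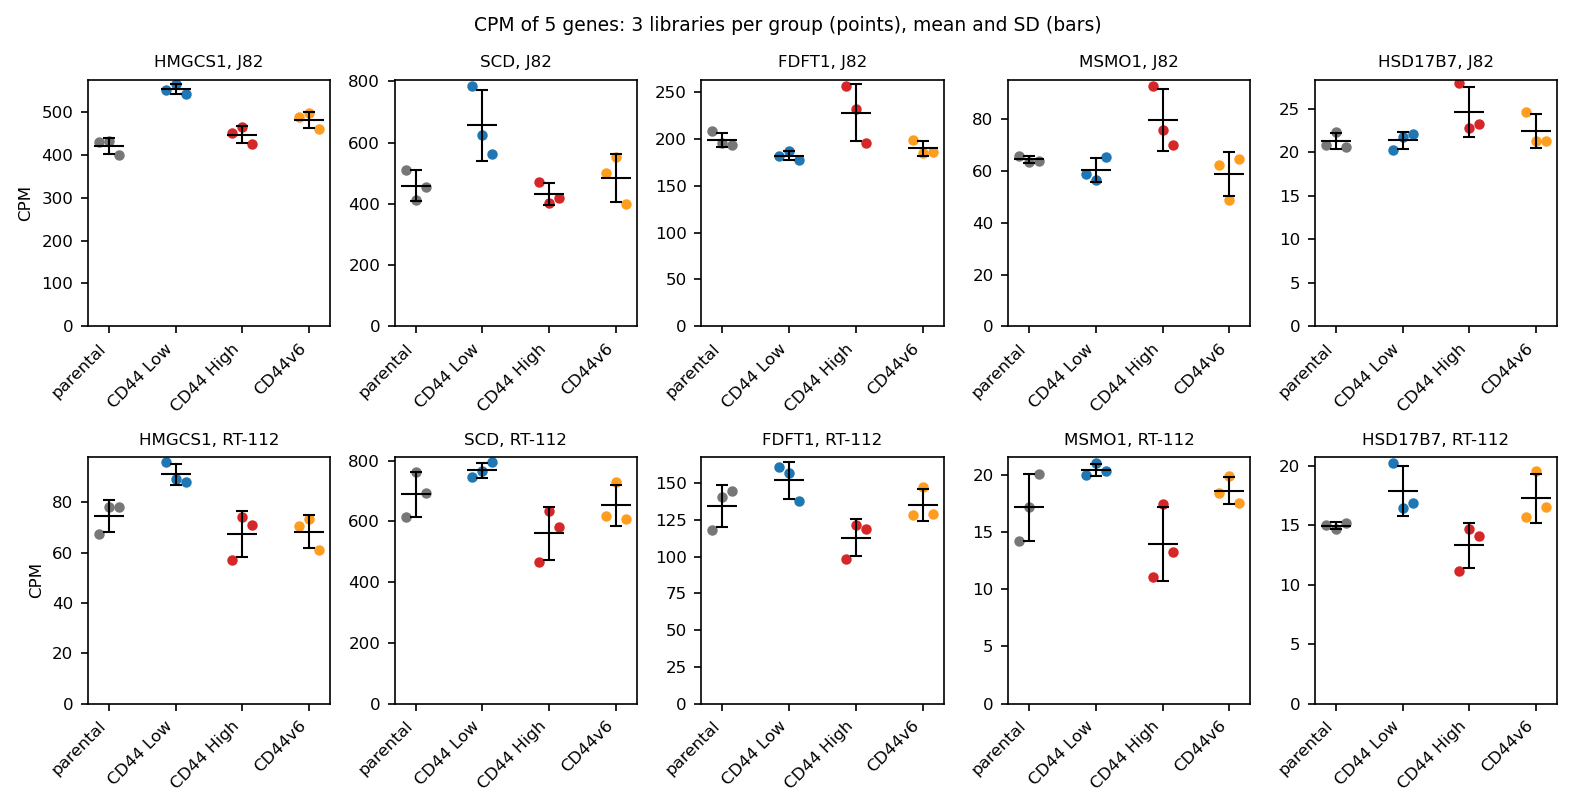
Levels in CPM (linear axes from 0) of HMGCS1, SCD, FDFT1, MSMO1 and HSD17B7 in the 4 groups of J82 (top) and RT-112 (bottom), with points for the 3 libraries of a group in replicate order and bars for mean and SD. HMGCS1 and SCD are highest in CD44 Low in both lines, while FDFT1, MSMO1 and HSD17B7 are highest in CD44 High in J82 and lowest there in RT-112.

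HMGCS1 was at 96.0, 89.4 and 88.2 CPM in RT-112 CD44 Low and at 56.9, 74.1 and 71.1 CPM in CD44 High (log2 -0.40, SE 0.10, adjusted p = 0.0186). FDFT1 was at 161, 157 and 138 CPM against 98.5, 122 and 119 CPM (log2 -0.39, SE 0.10, adjusted p = 0.0193). In each gene the groups did not overlap, and CD44 High replicate 1 was the lowest library. MSMO1 was at 20, 21.0 and 20.3 CPM in CD44 Low and at 11.1, 17.5 and 13.3 CPM in CD44 High (log2 -0.52, SE 0.15, adjusted p = 0.0317). SCD was at 747, 765 and 795 CPM against 466, 635 and 581 CPM (log2 -0.43, SE 0.11, adjusted p = 0.0186). CYP51A1, lanosterol demethylase, was also called and is named here after its values were seen, at log2 -0.36 (SE 0.11, adjusted p = 0.0434); the table lists 3 pseudogenes named for it, and 1 named for SCD, so counts of both are uncertain where reads are shared.

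These 5 lower calls were less firm than that of FADS1. In a fit on the 6 libraries alone none of the 5 kept its call, with adjusted p from 0.0507 to 0.0878. HMGCS1 lost its call without CD44 Low replicate 1 or CD44 High replicate 1, FDFT1 without CD44 Low replicate 1 or 2 or CD44 High replicate 1, and SCD without CD44 Low replicate 2 or 3 or CD44 High replicate 1 (adjusted p up to 0.0761, 0.0783 and 0.0733). CYP51A1 lost it without CD44 Low replicate 1 or 2 or CD44 High replicate 1 or 3, and MSMO1 without any library but CD44 High replicate 2 (adjusted p up to 0.15 and 0.13). CD44 High replicate 2 stood apart from its group: it was the highest of the 3 libraries in 28 of the 33 members with a count in every RT-112 library, among them 16 of 18 sterol enzymes. Without it 7 members were called in place of 6, and the log2 fold change of MSMO1 was -0.70. Over all fits leaving out 1 library the count ran from 1, without CD44 High replicate 1, to 7.

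None of the regulators was called in RT-112, and that library was the highest of its group in each. SREBF1 was at 85.6, 76.9 and 69.0 CPM in CD44 Low and at 82.1, 110 and 55.4 CPM in CD44 High (log2 0.13, SE 0.17, adjusted p = 0.671). INSIG1 was at 97.8, 71.4 and 71.5 CPM against 69.9, 109 and 62.3 CPM (log2 0.03, SE 0.18, adjusted p = 0.929). In both genes replicate 2 of CD44 High was the highest library of all 12, and without it the log2 fold changes were -0.13 and -0.24, neither of them called. SREBF2 was at 61.4, 65.6 and 75.8 CPM against 57.7, 74.1 and 59.5 CPM (log2 -0.05, adjusted p = 0.79), and SCAP at 18.3, 21.3 and 19.1 CPM against 18.6, 25.1 and 20 CPM (log2 0.15, adjusted p = 0.432). Both overlapped between the groups.

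**Figure D4:**
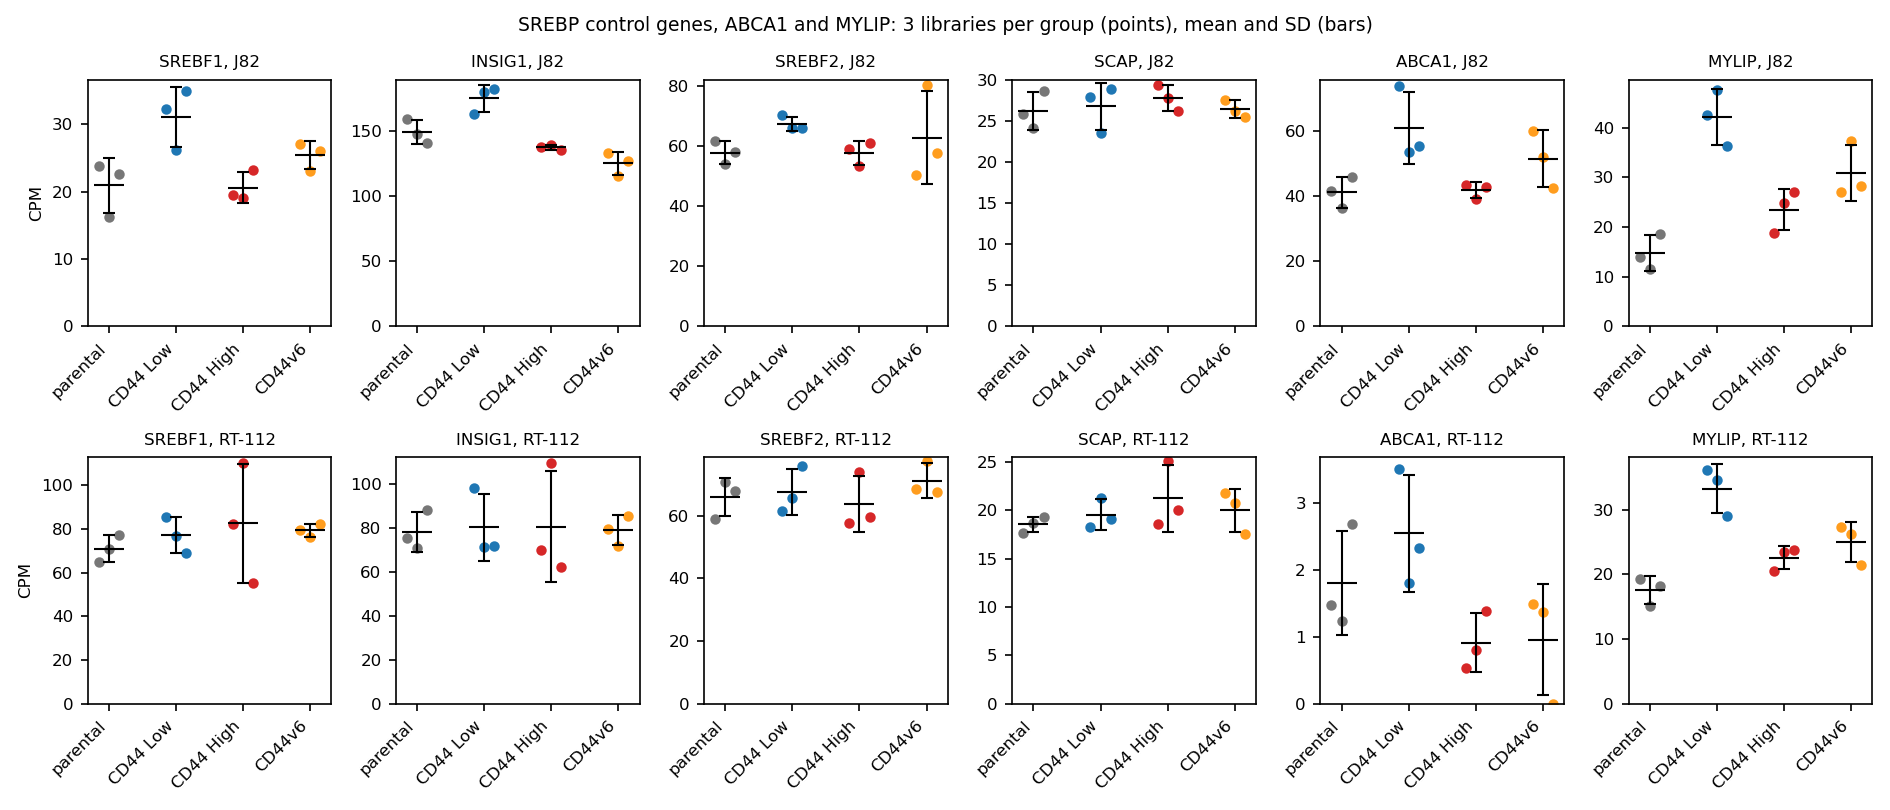
Levels in CPM (linear axes from 0) of SREBF1, INSIG1, SREBF2, SCAP, ABCA1 and MYLIP in the 4 groups of J82 (top) and RT-112 (bottom), with points for the 3 libraries of a group and bars for mean and SD. In J82, SREBF1, INSIG1, ABCA1 and MYLIP are highest in CD44 Low; in RT-112, replicate 2 of CD44 High lies above its fellows for SREBF1 and INSIG1, at 110 and 109 CPM.

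FADS1 was the member with the largest called change within a line. In RT-112 it was at 5.45, 5.85 and 4.93 CPM in CD44 Low, at 10.5, 14.2 and 10.7 CPM in parental cells, at 22.3, 21.3 and 12.4 CPM in CD44 High and at 17.6, 14 and 24.4 CPM in CD44v6. All CD44 Low libraries lay below all others, and CD44 High and CD44v6 overlapped each other and the parental range. CD44 High exceeded CD44 Low by 3.51-fold (log2 1.81, SE 0.25, adjusted p = 6.56e-04) and CD44v6 exceeded it by 3.43-fold (log2 1.78, SE 0.25, adjusted p = 7.86e-04). These 2 calls held whichever single library was left out, and under the alternatives tried for RT-112. CD44 Low was also lower than parental RT-112, at log2 -1.16 (SE 0.25, adjusted p = 0.0229), but this call was lost without any 1 of the 6 libraries (adjusted p from 0.0513 to 0.116). These 2 groups also differed in small nuclear RNA, at 626 to 713 CPM in parental cells and 209 to 387 CPM in CD44 Low, whose part in the result was not tested.

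In J82, where FADS1 was far more abundant, its 12 libraries lay between 202 and 257 CPM and no comparison was called; CD44 High against CD44 Low was at log2 0.14 (SE 0.07, adjusted p = 0.231). FADS2 lies next to FADS1 on the opposite strand and shares 490 exonic bases with it in GENCODE 29, 4.79% of the exonic bases of FADS1. It was not called in RT-112, where its level was 0.885 ± 0.385 CPM in CD44 Low and 0.934 ± 0.487 CPM in CD44 High (SD, n = 3; log2 0.09, SE 0.44, adjusted p = 0.92), though at about 1 CPM its error is wide. Among the other 6 fatty acid and glycerolipid genes in RT-112, SCD was called as given above, and ACLY, ACACA, FASN, ELOVL6 and LPIN1 were not, at log2 -0.05 to 0.29.

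**Figure D5:**
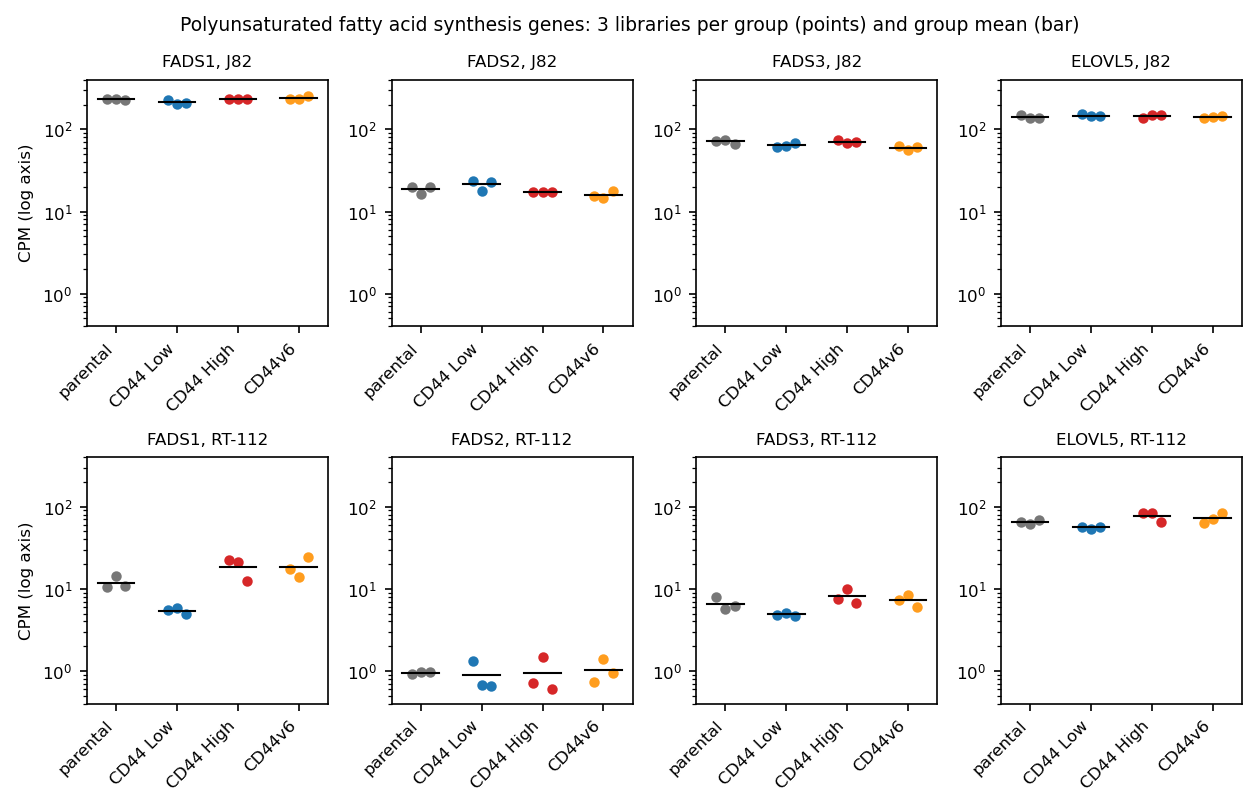
Levels in CPM on a shared log axis of FADS1, FADS2, FADS3 and ELOVL5, genes of polyunsaturated fatty acid synthesis, in the 4 groups of J82 (top) and RT-112 (bottom), with points for the 3 libraries of a group and a bar for the mean. FADS1 in RT-112 is lowest in CD44 Low, at 4.93 to 5.85 CPM, and stays between 202 and 257 CPM in all J82 libraries.

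The CD44v6 lines were compared with CD44 Low in the same way. In J82 the single member called was INSIG1, 1 of 32 (3.12%, lower) against 9.58% of all genes (6.18% higher and 3.40% lower): it was at 133, 116 and 126 CPM in CD44v6 and at 163, 179 and 182 CPM in CD44 Low (log2 -0.48, SE 0.08, adjusted p = 0.00269). Each CD44v6 library was below each CD44 Low library. The call held on leaving out each of the 6 libraries in turn, and was lost with replicates 1 and 2 only (adjusted p = 0.0665). SCD, FADS2 and CYP51A1 had the next lowest adjusted p, at 0.0771, 0.0677 and 0.0843, with log2 fold changes of -0.44, -0.43 and -0.25, and are named after their values were seen. In J82 CD44v6, SREBF1 was at 27.1, 23.1 and 26.0 CPM, SREBF2 at 50.5, 80.4 and 57.7 CPM and SCAP at 27.6, 26.3 and 25.5 CPM, none of them called against CD44 Low.

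In RT-112, 4 of 34 members (11.8%) were called in CD44v6 against CD44 Low, 3 higher and 1 lower, against 16.0% of all genes (7.97% higher and 8.03% lower). Besides FADS1, ABCG1 was higher: it was at 17, 20 and 12.7 CPM in CD44 Low and at 42.0, 32.6 and 20.4 CPM in CD44v6 (log2 0.93, SE 0.29, adjusted p = 0.0435). The lowest CD44v6 library only just exceeded the highest CD44 Low library, and the call was lost without any library but CD44v6 replicate 3 (adjusted p up to 0.158) and with no filter on low counts (adjusted p = 0.0741). DHCR7, which makes cholesterol from 7-dehydrocholesterol in the last step of synthesis and is named after its values were seen, was higher by 1.34-fold (log2 0.42, SE 0.09, adjusted p = 0.0113); without CD44 Low replicate 1 the adjusted p was 0.0515. HMGCS1 was lower, at 70.4, 73.4 and 61.0 CPM in CD44v6 (log2 -0.43, SE 0.10, adjusted p = 0.0162). Its call was lost without CD44 Low replicate 1 or CD44v6 replicate 3 (adjusted p up to 0.0844). The regulators were near CD44 Low: INSIG1 was at 79.5, 71.8 and 85.4 CPM, SREBF1 at 79.4, 76.3 and 82.3 CPM, SREBF2 at 68.4, 77.6 and 67.6 CPM and SCAP at 21.8, 20.8 and 17.5 CPM, with log2 fold changes from -0.03 to 0.07. ABCA1, at 1.38 to 1.49 CPM in 2 libraries of CD44v6 and 0 in the third, differed by -1.40 (SE 0.69, adjusted p = 0.187).

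CD44 Low was then compared with the parental cells; this comparison shares its CD44 Low libraries with those above. In J82, 2 of 32 members (6.25%) were called, both higher, against 5.34% of all genes (2.26% higher and 3.08% lower). HMGCS1 was at 430, 432 and 399 CPM in parental J82, below every CD44 Low library (log2 0.39, SE 0.07, adjusted p = 0.0072); without parental replicate 3 the adjusted p was 0.0513, and with replicates 1 and 2 only it was 0.065. ABCA1 was at log2 0.56 (SE 0.15, adjusted p = 0.0475), a call that was lost without any 1 of the 6 libraries (adjusted p from 0.0504 to 0.208), with no filter on low counts, and with replicates 1 and 2 only (adjusted p up to 0.0679 for these). Small nuclear RNA was also uneven here, at 437, 429 and 261 CPM in parental J82 and 987, 995 and 185 CPM in CD44 Low. Its part in these 2 calls was not tested. SREBF1, at log2 0.57 (adjusted p = 0.0539), and SCD, at 0.51 (adjusted p = 0.0577), lay just outside the threshold. The other regulators in parental J82 were at 159, 147 and 141 CPM (INSIG1), 61.6, 53.9 and 58.0 CPM (SREBF2) and 25.8, 24.2 and 28.7 CPM (SCAP), none of them called. In RT-112, FADS1 was the single member called, 1 of 34 (2.94%, lower) against 3.20% of all genes (1.33% higher and 1.87% lower); there SREBF1, INSIG1, SREBF2 and SCAP differed from parental cells by 0.08, 0.01, 0.00 and 0.04 on the log2 scale.

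CD44 High and CD44v6 were also compared with the parental cells and with each other. By edgeR's quasi-likelihood test no member was called in CD44 High against parental cells in J82 (2.94% of all genes called) or RT-112 (0.511%), and none in CD44v6 against parental cells (2.60% and 0.614%). At an unadjusted p under 0.05 there were 1, 4, 5 and 3 such members in that order, and DESeq2 called 0, 0, 3 and 0. Without J82 CD44v6 replicate 3, 2 members were called in CD44v6 against parental J82. CD44v6 against CD44 High gave no call among the members or among all genes in either line (0% of all genes; 4 members in each line at an unadjusted p under 0.05 and 0 by DESeq2), and without RT-112 CD44 High replicate 2 it gave 2. HMGCS1 averaged 420 ± 18.3 CPM in parental J82, 447 ± 20.5 in CD44 High, 482 ± 19.1 in CD44v6 and 553 ± 12.1 in CD44 Low (SD, n = 3). In RT-112 the order was another, with 67.4 ± 9.19 CPM in CD44 High, 68.3 ± 6.49 in CD44v6, 74.6 ± 6.32 in parental cells and 91.2 ± 4.18 in CD44 Low; in both lines the first 3 of these were not called against each other.

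Whether the change from CD44 Low to CD44 High differed between the lines was tested with an interaction contrast over all 24 libraries. It was called for 4 of 34 members (11.8%), against 10.7% of all genes (6.24% positive, 4.42% negative), and these were FDFT1, MSMO1, HSD17B7 and FADS1. FDFT1 and MSMO1 rose in J82 and fell in RT-112, differing by 0.75 (SE 0.15, adjusted p = 0.00211) and 0.96 (SE 0.21, adjusted p = 0.00454) on the log2 scale, and both kept the call without any 1 of the 12 libraries. HSD17B7, the ketoreductase of the same demethylation complex as MSMO1, was at 20.3, 21.8 and 22.2 CPM in J82 CD44 Low and 28.0, 22.8 and 23.2 CPM in CD44 High, and at 20.3, 16.4 and 16.9 CPM in RT-112 CD44 Low and 11.2, 14.7 and 14.1 CPM in CD44 High. Neither line's change was called alone, at log2 0.21 (adjusted p = 0.221) and -0.39 (adjusted p = 0.0584), but the difference was 0.63 (SE 0.17, adjusted p = 0.0228). It was lost without J82 CD44 High replicate 1, RT-112 CD44 Low replicate 1 or RT-112 CD44 High replicate 1 (adjusted p up to 0.0739), and the table lists 2 pseudogenes named for this gene. FADS1 differed by -1.64 (SE 0.25, adjusted p = 2.27e-04), and again by -1.59 (SE 0.25, adjusted p = 3.97e-04) in CD44v6 against CD44 Low, where it was the single member called (2.94%, against 7.52% of all genes, 4.56% positive and 2.96% negative).

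The decreases of HMGCS1 and SCD in CD44 High against CD44 Low were not shown to differ between the lines, at 0.13 (SE 0.13, adjusted p = 0.612) and -0.15 (SE 0.19, adjusted p = 0.723). Nor was the change of SREBF1 or INSIG1, which was called in J82 alone: the interaction was -0.69 (SE 0.25, adjusted p = 0.0866) for SREBF1 and -0.35 (SE 0.22, adjusted p = 0.34) for INSIG1. In CD44 Low against parental cells no member's change differed between the lines (1.06% of all genes did; 1 member at an unadjusted p under 0.05 and 1 by DESeq2). STARD4 and ABCG1 give no usable difference of this kind, since J82 had 0 and 2 counts.

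Summed over the 18 sterol enzymes, the level ran from 1997 to 2339 CPM in J82 libraries and from 1096 to 1476 CPM in RT-112 libraries. In RT-112 CD44 High the 3 sums were 1096, 1347 and 1141 CPM, against 1476, 1437 and 1252 CPM in CD44 Low. The groups overlapped through CD44 High replicate 2, which also had the highest INSIG1 and SREBF1 of the group. In J82 the sums were 2339, 2293 and 2081 CPM in CD44 High and 2190, 2278 and 2273 CPM in CD44 Low, also overlapping. Replicate 3, with little small nuclear RNA, was the lowest of CD44 High, near the highest of CD44 Low and between its fellows in CD44v6 (2099 CPM, against 2147 and 1997). In bulk libraries, a change in the number of cells of a kind and a change in RNA per cell cannot be told apart.

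Other genes of the pathway, 27 in a list chosen by function, were tested in the same fits. In CD44 High against CD44 Low, 5 were called in J82 (18.5%, 3 higher and 2 lower) and 8 in RT-112 (29.6%, 4 higher and 4 lower), beside the 15.7% and 16.0% of all genes. MYLIP, the ubiquitin ligase induced by liver X receptors that degrades lipoprotein receptors, was lower in both lines: it was at 42.4, 47.6 and 36.3 CPM in J82 CD44 Low and 18.8, 24.7 and 26.9 CPM in CD44 High (log2 -0.84, SE 0.19, adjusted p = 0.00957), and in RT-112 at 36.2, 34.7 and 29 against 20.6, 23.5 and 23.7 CPM (log2 -0.52, SE 0.13, adjusted p = 0.0144). No groups overlapped; the J82 call held without each library, and the RT-112 call was lost without CD44 Low replicate 1 or 2 or CD44 High replicate 1 (adjusted p up to 0.0655). MYLIP was also higher in CD44 Low than in parental cells in both lines, by 2.86-fold in J82 (log2 1.52, SE 0.19, adjusted p = 6.67e-04) and 1.85-fold in RT-112 (log2 0.89, SE 0.13, adjusted p = 0.00397).

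VLDLR, a lipoprotein receptor, was lower in CD44 High of J82, at 24.4, 19.4 and 17.1 CPM against 53.1, 49.4 and 35.2 CPM (log2 -1.17, SE 0.21, adjusted p = 0.00252), a call that held without each library. It was also lower in J82 CD44v6 (log2 -0.73, adjusted p = 0.0461) and higher in CD44 Low than in parental J82 (log2 0.83, adjusted p = 0.039), 2 calls that were lost in 4 and 5 of 6 fits leaving out a library (adjusted p up to 0.164 and 0.16) and with no filter on low counts. The first was also lost on the 6 libraries alone (adjusted p = 0.148) and with replicates 1 and 2 only (adjusted p = 0.0665). In RT-112 it was at 1.80 to 3.78 CPM and not called. FADS3, a relative of FADS1 at the same locus, was higher in RT-112 CD44 High (log2 0.76, SE 0.19, adjusted p = 0.0166; lost without CD44 Low replicate 1 or CD44 High replicate 2, adjusted p up to 0.0667, and on the 6 libraries alone, adjusted p = 0.052), and so was ELOVL5, which elongates polyunsaturated fatty acids and is named after its values were seen (log2 0.50, SE 0.12, adjusted p = 0.015; lost without CD44 Low replicate 2 or CD44 High replicate 1, adjusted p up to 0.0743). LIPA, the lysosomal acid lipase that frees cholesterol from its esters, was lower there (log2 -0.69, SE 0.15, adjusted p = 0.00858), without losing the call on leaving out any library.

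In CD44v6 against CD44 Low, 3 of the 27 were called in J82 (11.1%, 1 higher and 2 lower) and 4 in RT-112 (14.8%, 1 higher and 3 lower), beside 9.58% and 16.0% of all genes. ACSL4, which activates arachidonic acid for incorporation into phospholipids, was at 59.4, 41.4 and 47.5 CPM in RT-112 CD44 Low and at 29.5, 27.3 and 23.8 CPM in CD44v6 (log2 -0.89, SE 0.16, adjusted p = 0.00443). Every CD44v6 library was lower, and the call held without each library. TMEM97 was higher in RT-112 CD44v6 (log2 0.50, SE 0.12, adjusted p = 0.0177) and TECR, the last enzyme of the very long chain elongation cycle, was lower in J82 CD44v6 (log2 -0.55, SE 0.16, adjusted p = 0.0457); these were lost in 4 and 5 of 6 fits leaving out a library (adjusted p up to 0.0723 and 0.175). The TECR call was also lost with no filter, on the 6 libraries alone and with replicates 1 and 2 only, where the log2 fold change was -0.29 (adjusted p = 0.434). In CD44 Low against parental cells 2 were called in J82 (7.41%, both higher, beside 5.34%) and 1 in RT-112 (3.70%, higher, beside 3.20%).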

How the data were processed

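RNA sequencing of total RNA gave 24 libraries in 8 groups of 3. The authors deposited raw gene counts, checked as whole numbers; per the submitters' processing notes HISAT2, StringTie and GRCh37 were used, while the counter, annotation, strand setting and versions are not given in the sources used here. Without the strand setting, reads of overlapping antisense genes cannot be told apart. CPM were computed from the deposited counts with edgeR's TMM factors over all 24 libraries. Tests were two-sided edgeR 4.0.16 quasi-likelihood tests (R 4.3.3) with filterByExpr and Benjamini-Hochberg adjustment over all genes, called at an adjusted p under 0.05: 1 fit per line on its 12 libraries, and 1 fit on all 24 for the differences between lines and between parental lines. SE is the log2 fold change divided by the root of F. Alternatives were median-of-ratios factors, no filter, DESeq2 1.42.0, a replicate block, the 6 libraries compared alone and leaving out each library. Lengths and exon overlaps came from GENCODE 29 and promoters from RefSeq GRCh38.p14; no coordinate was converted. Per-library values are given for the 4 regulators, for up to 3 called members with the largest change per line and comparison, for members called in both lines, and for members whose change differed between lines; of the other pathway genes, up to 2 per line and comparison with CD44 Low are named. The members and lists were chosen with earlier results of these data known. Same-numbered libraries deviated together with every correlation over 0.1 only in J82 CD44v6 against CD44 High (0.112, 0.110 and 0.252 for replicates 1 to 3), a pairing seen in the data and not in the labels. In J82 CD44v6 against CD44 Low the correlations were 0.0569, 0.0760 and 0.377. In J82 CD44 High against CD44 Low they were 0.0379, 0.113 and 0.230. Replicate 3 thus correlated most in each of these comparisons. No libraries of a group were repeated deposits: chi-square per degree of freedom between replicates was 6.42 to 63.7. The script was tested on simulated data.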

Additional observations from a re-analysis of the deposited data

Results flagged for a closer look

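The change from CD44 Low to CD44 High differed between J82 and RT-112 for 4 of 34 members (11.8%) and 8 of 27 other pathway genes (29.6%) by the interaction contrast of edgeR's quasi-likelihood test, against 10.7% of all genes. Each value is the log2 change in J82 minus that in RT-112. Of the members, FDFT1 differed by 0.75 (SE 0.15, adjusted p = 0.00211), MSMO1 by 0.96 (SE 0.21, adjusted p = 0.00454), HSD17B7 by 0.63 (SE 0.17, adjusted p = 0.0228) and FADS1 by -1.64 (SE 0.25, adjusted p = 2.27e-04). Of the genes that supply or activate fatty acids, ME1, the malic enzyme that makes NADPH, differed by -0.63 (adjusted p = 0.0485), and the acyl-CoA synthetases ACSL1 and ACSL4 by 0.81 (adjusted p = 0.0293) and 0.91 (adjusted p = 0.00343). Of the elongation and desaturation genes, ELOVL5 differed by -0.47 (adjusted p = 0.0362), FADS3 by -0.60 (adjusted p = 0.0479) and HSD17B12 by 0.57 (adjusted p = 0.0137). LIPA differed by 0.78 (adjusted p = 0.0171) and VLDLR by -1.16 (adjusted p = 0.0273).

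The change from CD44 Low to CD44v6 differed for 1 of 34 members (2.94%) and 2 of 27 other pathway genes (7.41%), against 7.52% of all genes: FADS1 by -1.59 (SE 0.25, adjusted p = 3.97e-04), ACSL4 by 1.14 (SE 0.19, adjusted p = 6.55e-04) and FADS3 by -0.69 (SE 0.19, adjusted p = 0.0298). FDFT1, MSMO1, FADS1, ACSL4 and HSD17B12 kept their calls in each fit that left out 1 of the 12 libraries compared. ELOVL5 and FADS3 lost theirs in 11 of 12 fits and ME1 in 10 (CD44 High against CD44 Low). There VLDLR lost its call in 8 of 12 fits (adjusted p up to 0.0714), ACSL1 in 5 (adjusted p up to 0.0833), HSD17B7 in 3 and LIPA in 1 (adjusted p = 0.0507). FADS3 in CD44v6 against CD44 Low lost its call in 8 of 12 (adjusted p up to 0.106). With no filter on low counts ME1, ELOVL5 and FADS3 (in both contrasts) also lost theirs.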

How the results depend on the processing

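Counts of called members that moved by over 1.5 times were as follows. With J82 replicates 1 and 2 only, an alternative chosen after seeing the data, CD44 High against CD44 Low gave 3 in place of 7, CD44v6 against CD44 Low 0 in place of 1, and CD44 Low against parental 0 in place of 2. DESeq2 gave 5 for J82 CD44v6 against CD44 Low, 5 for J82 CD44 Low against parental, 3 for J82 CD44v6 against parental, 2 for RT-112 CD44 Low against parental and 1 for the difference between lines in CD44 Low against parental. The replicate block gave 3 for J82 CD44v6 against CD44 Low, 4 for J82 CD44 Low against parental and 0 for RT-112 CD44 Low against parental. For J82 CD44v6 against CD44 High, where every same-numbered correlation was over 0.1, it gave 0, as without it. Of the calls named in the text, the block ended those of CYP51A1 (RT-112 CD44 High against CD44 Low), ABCG1 (RT-112 CD44v6 against CD44 Low; adjusted p = 0.0748), TECR (J82 CD44v6 against CD44 Low), FADS1 (RT-112 CD44 Low against parental; adjusted p = 0.0542) and ME1 and ELOVL5 (difference between lines in CD44 High against CD44 Low). Fits on the 6 libraries alone gave 4 for J82 CD44 Low against parental, 1 in place of 6 for RT-112 CD44 High against CD44 Low and 1 for RT-112 CD44v6 against parental. No filter gave 1 for J82 CD44 Low against parental. The cause was not tested.

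Leaving out 1 library gave 2 to 5 (J82 CD44 High against CD44 Low), 1 to 2 (CD44v6 against CD44 Low), 0 to 2 (CD44 Low against parental), 0 to 2 (CD44v6 against parental) and 0 to 0 (CD44 High against parental, CD44v6 against CD44 High). In RT-112 it gave 1 to 7, 1 to 3, 0 to 2, 0 to 0, 0 to 0 and 0 to 2 (CD44v6 against CD44 High). The differences between lines gave 3 to 5, 1 to 1 and 0 to 0, and the parental lines 27 to 27. Of the single genes' values, 996 kept direction and side, 235 lost the call and 7 reversed, none of them called: SCAP in J82 CD44 High against CD44 Low without CD44 Low replicate 2 (-0.028, up to 0.12 over the others); and in RT-112 INSIG1 without filter (-0.0105), without CD44 Low replicate 2 (-0.05) or 3 (-0.04) or CD44 High replicate 2 (-0.24, up to 0.19 over the others), SREBF1 without CD44 High replicate 2 (-0.13, up to 0.34) and SREBF2 without CD44 Low replicate 3 (0.045, down to -0.17). Genes near 1 CPM, such as FADS2 and ABCA1 in RT-112, have wide errors at this depth.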

Other observations

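The neighbours of FADS1, STARD4 and ABCG1 in the annotation were also read. Next to FADS1, FEN1 (a flap endonuclease of DNA replication) was higher in RT-112 CD44 High than in CD44 Low, at log2 0.34 (SE 0.10, adjusted p = 0.0299), and TMEM258 was not called, at 0.27 (adjusted p = 0.446). Near STARD4, which had no count in J82, CAMK4 was at 14.6 to 27.8 CPM and NREP at 8.42 to 14.7 CPM in J82 and both were at 0 in RT-112, while WDR36 was at 78.3 to 90.3 CPM in J82 and 44.0 to 72.6 CPM in RT-112. Near ABCG1, which had 2 counts in J82, TFF1 was at 0 in all J82 libraries and at 7.63 to 25.5 CPM in RT-112. UMODL1, TFF3, TFF2 and TMPRSS3 were also at 0 in J82, and did not exceed 0.858 CPM in RT-112. PRDM15, C2CD2 and ZBTB21 were present in J82, at 9.55 to 14.3, 3.89 to 8.39 and 9.72 to 17.9 CPM. In RT-112 these were at 21.4 to 29.5, 48.9 to 71.3 and 28.0 to 36.5 CPM.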
